A study of Mus musculus with 6 samples.

Results

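Colon of mice that ate parsley and drank dextran sodium sulphate (DSS) was compared with colon of mice that drank DSS alone. The comparison rested on 2 arrays of the 6 in the series, 1 from each group, each of RNA pooled from 7 mice, so no spread between animals was measured and no p-value is given. The mice were male C57BL6/J mice bought at 7 weeks of age and caged singly, and the arrays were Affymetrix Mouse Genome 430 2.0 arrays labelled from 15 µg of total RNA. The group called DSS ate a basal diet and drank plain water for 7 days and then 1.5% (w/v) DSS for 10 days. The group called DSSPAR was fed 2% parsley in the basal diet from the start, with plain water for 7 days and 1.5% DSS for 9 days. By the treatment protocols the diet and 1 day of exposure therefore differed together, and they cannot be told apart. The growth protocol gives 9 days at the end of its account of DSSPAR and states no length for DSS. The group called CON, with basal diet and plain water, supplied a further colon array. Its levels are given beside the others but enter no count of the comparison. Many genes are named for their difference between DSSPAR and DSS. Where DSS then stands highest or lowest of the arrays is partly set by that choice and supports nothing. RNA came from excised colon tissue frozen in liquid nitrogen.

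Genes were taken from probe sets that carry exactly 1 gene symbol. Their linear intensities were raised to a floor of 25.1, the median intensity of the 3 colon arrays, and a gene was kept if either array of the comparison lay above it. Of 18194 genes, 11730 (64.5%) were kept, and they are called measured below. The other 6464 lay under the floor in both arrays. Values are array intensities in arbitrary units, and a difference is the log2 ratio of DSSPAR over DSS, which is what a value with no unit after a gene's name or levels stands for. Folds are those of DSSPAR against DSS. Where the lower array was under the floor, the fold is only a bound and is written "at least". Values under the floor are printed as deposited but have no order among themselves. Intensities of different genes come from different probes and are not set against each other.

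DSS is a polymer that damages the colonic epithelium and lets bacteria of the gut lumen reach the tissue beneath it. Macrophages, neutrophils and fibroblasts answer with cytokines and chemokines, which call in more leukocytes, and with matrix metalloproteinases, which cut collagen and other matrix proteins. The epithelium loses transporters and detoxifying enzymes of its mature cells while crypt cells divide to cover the wound. Parsley is a leafy herb rich in flavones such as apigenin, which the gut wall and liver conjugate with the same enzyme families that handle drugs.

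Most genes lay close to the line of equal intensity. The median log2 ratio of the measured genes was -0.01, and the middle of the distribution ran from -0.23 at the 25th percentile to 0.19 at the 75th. A ratio above 0 was found for 5670 genes (48.3%) and a ratio below 0 for 6060 (51.7%). At least 2-fold higher in DSSPAR were 46 genes (0.392%), and at least 2-fold lower 146 genes (1.24%), so that 24.0% of the genes past 2-fold were higher. That split depended on the scaling: it was 57.8% with each array centred on its own median, 35.4% with centring on probe sets above the floor, 41.8% after quantile normalization and 3.95% with scaling to the spike-in controls. Between 1.5-fold and 2-fold lay 331 genes on the higher side and 569 on the lower. At 4-fold the count was 0 on the higher side, whereas 19 were at least 4-fold lower, 12 of them genes of exocrine pancreas. Of the lower genes 35 were floored in DSSPAR, and of the higher genes 7 were floored in DSS. Among the 10853 genes above the floor in both arrays, 39 (0.359%) were 2-fold higher and 111 (1.02%) 2-fold lower. Centring on own medians moved the median of all genes by 0.19 and scaling to spike-ins by -0.24, so a list median between those sizes has no settled sign as an amount. List medians are therefore read against -0.01, the median of all measured genes. Every list count below is read against the shares over all measured genes. These are 48.3% above 0, 51.7% below, 0.392% higher by 2-fold and 1.24% lower by 2-fold. The lists were chosen with earlier results of these data known, so a list's distance from these shares is a description and no test. The threshold cut through a dense part of the distribution: Lgals7, Inhba and Gcfc2 lay just past it on the lower side (-1.004, -1.003 and -1.003) and Ccdc86, Bod1l and Il18bp just short of it (-0.999, -0.998 and -0.996). On the higher side Shisa2 and Tnfsf13os (1.01 each) lay just past it and Mrpl33 and Nqo1 (0.99 each) just short.

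**Figure D1:**
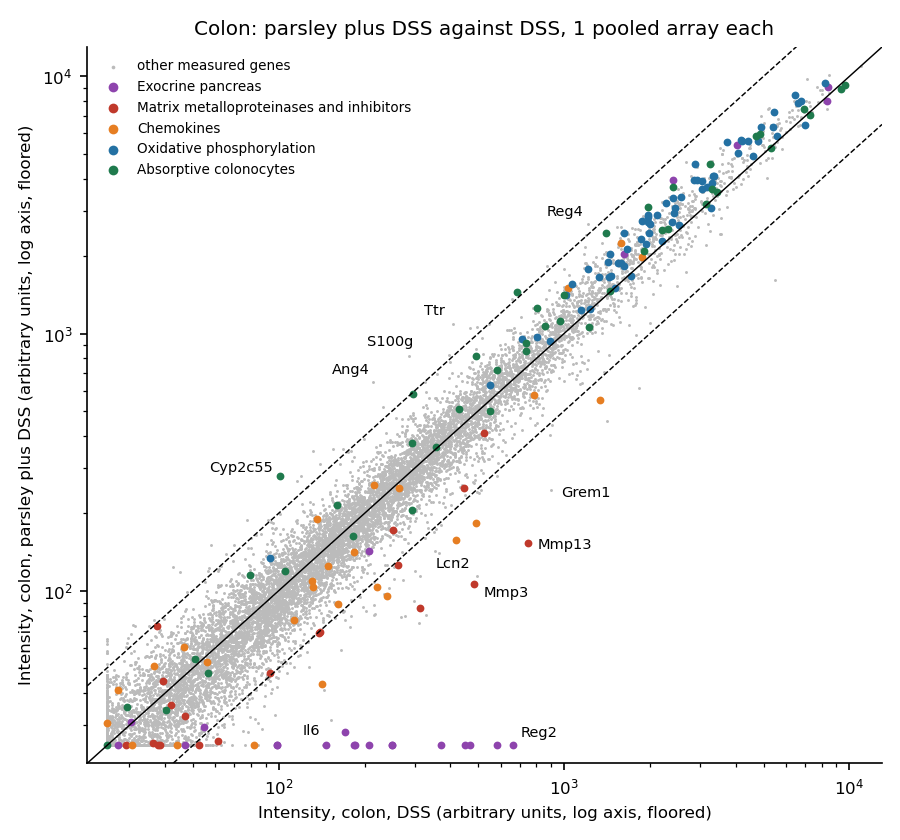
Intensity of each of the 11730 measured genes in the DSS array (horizontal) and the DSSPAR array (vertical), both log axes in arbitrary units, with values under the floor of 25.1 drawn at it; each point is 1 gene from 1 pooled array a group, so there are no error bars. The solid line marks equal intensity and the dashed lines 2-fold; 46 genes lie at or above the upper dashed line and 146 at or below the lower, where purple points along the floor are pancreatic genes and red and orange points protease and chemokine genes.

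Genes of position along the gut lay on both sides of 0. Of 31 on the array 18 were measured, 8 above 0 and 10 below, with a median of -0.01. Their ratios ran from -0.58 in Hoxd8 to 0.49 in Hoxb9. Cdx2 had -0.52, and Hoxb6 read 177 in CON but lay under the floor in DSS and DSSPAR. The posterior position gene Hoxb13 had intensities of 1206 in CON, 1439.6 in DSS and 1595 in DSSPAR, Hoxd13 538 in CON, 580.1 in DSS and 592 in DSSPAR and the intestinal transcription factor gene Cdx1 494 in CON, 448 in DSS and 443 in DSSPAR. The hepatocyte gene Alb (20.9, 8.57 and 11.3), the small intestinal lactase gene Lct and the foregut factor gene Sox2 lay under the floor in all 3. The arrays differed in other respects. The median intensity was 27.3 in CON, 25.7 in DSS and 22.5 in DSSPAR, and 9 hybridisation spike-in probe sets were 0.17 to 0.35 (log2) higher in DSSPAR than in DSS. The 18S ribosomal RNA probe sets, read through their 5' set, had 6156 in CON, 4018 in DSS and 390.4 in DSSPAR. The 3' over 5' ratio of Actb, a measure of RNA integrity, was 1.61, 1.30 and 1.69 in the same order. Of 4 equal groups by genomic span, the shortest genes, with a median span of 5.12 kb, had a median log2 ratio of 0.03, and the longest, with 102 kb, -0.06. The nuclear RNA Malat1, singled out after its values were seen, was 3.41-fold lower in DSSPAR by its brightest probe set (6189.8 in CON, 5493 in DSS and 1611 in DSSPAR), but its 7 probe sets ran from -2.28 to 0.51. The part of these differences in the results was not tested.

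Many exocrine pancreas genes were high in the DSS array alone. Reg2, a lectin-like secreted protein of acinar cells, read 19.8 in CON, 661 in DSS and 12.2 in DSSPAR, at least 26.4-fold lower in DSSPAR. The trypsinogen gene Prss2 read 12.0 in CON, 581 in DSS and 14.2 in DSSPAR (at least 23.2-fold lower), and its 4 probe sets ran from -4.53 to -3.65. Ctrb1, the chymotrypsinogen gene, read 1.55 in CON, 468 in DSS and 7.03 in DSSPAR (at least 18.7-fold lower). DSS was the high array in each, and CON and DSSPAR were under the floor. Cela2a (elastase; at least 17.9-fold lower), Cpb1 and Cpa1 (carboxypeptidases; at least 14.8-fold lower and at least 9.98-fold lower), Pnliprp1 (a lipase-related protein; at least 8.26-fold lower), Reg1 (at least 7.33-fold lower), Rnase1 (at least 5.83-fold lower) and Cel (bile salt-stimulated lipase; at least 3.95-fold lower) were also highest in DSS. In Cela3b, with 27.7 in CON, 171 in DSS and 28.2 in DSSPAR, the 4 probe sets ran from -4.64 to -2.60. Of 34 genes of the list on the array, 9 lay above the floor in CON, 25 in DSS and 10 in DSSPAR. Among the 25 measured, 14 were at least 2-fold lower, against 1.24% of all measured genes, and 0 higher, against 0.392%, and the median was -1.98. The 10 above the floor in both arrays had a median of 0.07, and they included genes that colonic epithelium also transcribes: Klk1 (a kallikrein, 6237 in CON, 4039 in DSS and 5402 in DSSPAR), Sycn (5391 in CON, 2412 in DSS and 3937 in DSSPAR) and Cela1 (2554 in CON, 1628 in DSS and 2036 in DSSPAR). The acinar transcription factor gene Ptf1a lay under the floor in all 3 arrays, with 5.75 in DSS. Of the 146 genes at least 2-fold lower, 132 remained when this list was left out. Markers of fat and of squamous epithelium, tissues that adjoin the colon, were mixed. The fat hormone gene Adipoq read 28.3 in CON, 82.5 in DSS and 31.6 in DSSPAR (2.61-fold lower), while Pck1, which liver and gut also express, had 0.57. Of 12 measured adipocyte genes 7 lay below DSS and 5 above, 2 were at least 2-fold lower and the median was -0.31; 11 genes lay above the floor in DSS, 10 in CON and 10 in DSSPAR. The squamous epithelial gene Krtdap, found at the anal margin, read 1.37 in CON, 64.3 in DSS and 29.6 in DSSPAR (2.17-fold lower), while the keratin gene Krt6a and Serpinb5 had 0.13 and 0.21. Of 20 measured squamous genes 15 lay below DSS and 5 above, 2 were at least 2-fold lower and the median was -0.34. Of the list 20 genes lay above the floor in DSS, 11 in CON and 18 in DSSPAR, and the summed intensity was 3475 in DSS, 2549 in CON and 3500.4 in DSSPAR. What these tissues contribute to the other results was not tested. In tissue of mixed cells, fewer cells of a type and less RNA per cell cannot be told apart.

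Matrix metalloproteinase genes were lower in DSSPAR. Mmp13, a collagenase, read 29.2 in CON, 746 in DSS and 154 in DSSPAR and was 4.85-fold lower. Mmp3 (stromelysin-1), whose product also activates other metalloproteinases, read 17.6 in CON, 482 in DSS and 106 in DSSPAR and was 4.54-fold lower. Mmp10 (stromelysin-2) read 11.3 in CON, 312 in DSS and 86.0 in DSSPAR and was 3.63-fold lower. In these 3 genes the DSS array was the highest and DSSPAR lay between it and CON. Mmp9, a gelatinase carried by neutrophils, was 2.37-fold lower (31.0 in CON, 61.5 in DSS and 26.0 in DSSPAR), and the membrane-bound Mmp14 was 2.09-fold lower (181 in CON, 263 in DSS and 126 in DSSPAR), so that DSSPAR was the lowest array for both. Adamts1 and Adamts4, which cut proteoglycans, were 2.02-fold lower and at least 2.09-fold lower. Of the tissue inhibitors, Timp1 was 2.02-fold lower (21.7 in CON, 139 in DSS and 68.8 in DSSPAR) and Timp3 1.78-fold lower, whereas Timp4 was 1.94-fold higher (104 in CON, 37.6 in DSS and 73.0 in DSSPAR). Adamts1, Timp1 and Mmp14 lay within 0.1 of the threshold and fell short of it when the arrays were centred on their own medians. The macrophage elastase gene Mmp12 had a log2 ratio of 0.18. Of 22 genes on the array 20 were measured: 18 lay below 0 against 51.7% of all measured genes, and 8 were at least 2-fold lower against 1.24%. The median was -0.72, and -0.90 over the 16 above the floor in both arrays.

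The stretches just before the starts of Mmp3, Mmp10 and Mmp13 are shown because these neighbouring genes had the lowest ratios of the list and each holds a match to the AP-1 binding letters. Promoter sequences are RefSeq's, build GRCm38.p6, 120 bases up to the base before the start, 5′ to 3′ on the plus strand, with the match in capitals.
Mmp3 (chr9:7445702-7445821): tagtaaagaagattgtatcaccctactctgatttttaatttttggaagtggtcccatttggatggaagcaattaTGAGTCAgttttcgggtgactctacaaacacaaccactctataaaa
Mmp10 (chr9:7502222-7502341): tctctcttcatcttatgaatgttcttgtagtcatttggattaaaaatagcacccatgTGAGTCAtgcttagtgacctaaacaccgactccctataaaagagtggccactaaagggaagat
Mmp13 (chr9:7272394-7272513): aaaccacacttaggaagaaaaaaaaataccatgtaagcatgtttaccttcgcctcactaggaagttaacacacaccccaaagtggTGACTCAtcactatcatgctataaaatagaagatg
The letters searched were TGANTCA, on both strands, where AP-1 is a dimer of Fos and Jun proteins. The match began 46 bases before the start in Mmp3, 63 in Mmp10 and 35 in Mmp13. Over the 250 bases before the start, 6.75% of 32851 promoters in the table held these letters, and 4.82% of the 12136 promoters of measured genes. Of the 8 lower genes of the list, which counts the inhibitor gene Timp1, 6 had a promoter in the table, and these 3 held the letters. A match of letters is a description and does not show that the factor bound. Of the Fos and Jun genes, Fos read 1325 in CON, 950.5 in DSS and 1018 in DSSPAR (0.10), Jun 338 in CON, 387 in DSS and 369.7 in DSSPAR (-0.07) and Jund 2014 in CON, 1218 in DSS and 787 in DSSPAR (-0.63). Junb and Fosl2 had -0.17 and 0.02, and Fosb and Fosl1 lay under the floor in both arrays. These genes thus lay on both sides of 0, with Jund the lowest. Of 28 measured immediate early genes 18 lay below 0, with a median of -0.14. Nr4a2 and Dusp5 passed 2-fold (-1.07 and -1.05), but the probe sets of Nr4a2 ran from -1.17 to 0.15.

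Il6, the interleukin that drives the acute phase response, read 0.312 in CON, 143 in DSS and 19.0 in DSSPAR and was at least 5.71-fold lower. Its start is shown with that of Cxcl1, which encodes a neutrophil attractant, because both hold a match to letters bound by NF-kB, and with that of Ptgs2, the inducible cyclooxygenase gene, which holds a C/EBP match; the source, length and strand are as above, and the match is in capitals.
Il6 (chr5:30012994-30013113): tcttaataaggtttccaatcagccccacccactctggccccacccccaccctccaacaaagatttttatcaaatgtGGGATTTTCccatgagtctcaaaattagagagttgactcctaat
Cxcl1 (chr5:90891125-90891244): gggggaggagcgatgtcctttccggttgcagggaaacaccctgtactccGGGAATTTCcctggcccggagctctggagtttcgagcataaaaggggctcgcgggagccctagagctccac
Ptgs2 (chr1:150099911-150100030): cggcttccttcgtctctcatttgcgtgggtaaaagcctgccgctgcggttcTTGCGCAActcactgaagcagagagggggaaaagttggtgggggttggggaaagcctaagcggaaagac
The letters were GGGANTTTC for NF-kB, held by 0.941% of all promoters and 0.939% of those of measured genes, and TTGCGCAA for C/EBP, held by 0.164% and 0.247%. The match began 44 bases before the start in Il6, 71 in Cxcl1 and 69 in Ptgs2. Il6 also held the AP-1 letters 249 bases before its start, outside the stretch printed. Of the 7 lower chemokine genes 4 had a promoter in the table, of which Cxcl1 and Cxcl9 held the NF-kB letters and Cxcl10 the AP-1 letters.

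Among the other interleukin genes Il1r2, a decoy receptor for interleukin-1, read 7.06 in CON, 76.5 in DSS and 24.6 in DSSPAR (at least 3.05-fold lower). The alarmin gene Il33 read 55.7 in CON, 197 in DSS and 86.4 in DSSPAR (2.28-fold lower). Il11, a relative of Il6 made by stromal cells, read 6.34 in CON, 44.0 in DSS and 12.9 in DSSPAR (at least 1.75-fold lower). The receptor subunit genes of the Il6 family were below DSS, with Il6st -0.88, Osmr -0.78 and Il6ra -0.71. Il1b, the interleukin made by activated macrophages, was nearer to equal with 54.2 in CON, 369 in DSS and 293 in DSSPAR (-0.33), and Tnf read 8.85 in CON, 47.4 in DSS and 55.5 in DSSPAR (0.23). Il1rn and Lif had 0.07 and 0.00. The list was mixed: of 32 genes on the array 25 were measured, 18 lay below 0, 3 were at least 2-fold lower and 0 higher, and the median was -0.33. The highest ratio was that of Il22ra2, a soluble receptor that binds interleukin-22, with 0.90 (43.0 in CON, 14.7 in DSS and 46.9 in DSSPAR, so DSS was under the floor).

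Chemokine genes split by family member. The monocyte attractants Ccl7 (8.02 in CON, 82.2 in DSS and 20.6 in DSSPAR) and Ccl2 (9.80 in CON, 141 in DSS and 43.5 in DSSPAR) were at least 3.28-fold lower and 3.25-fold lower. The neutrophil attractants Cxcl5 (12.5 in CON, 419 in DSS and 158 in DSSPAR) and Cxcl1 (15.5 in CON, 240.0 in DSS and 95.4 in DSSPAR) were 2.65-fold lower and 2.51-fold lower. The interferon-induced Cxcl9 (23.1 in CON, 493 in DSS and 184 in DSSPAR) and Cxcl10 (23.1 in CON, 221 in DSS and 104 in DSSPAR) were 2.68-fold lower and 2.14-fold lower, and Cxcl13, which draws B cells, was 2.41-fold lower (106 in CON, 1331 in DSS and 553 in DSSPAR). All 7 were highest in DSS. By contrast Ccl8 read 102 in CON, 1881 in DSS and 1989 in DSSPAR (0.08), a level near that of DSS, and Ccl20, an epithelial attractant of dendritic cells, read 12.8 in CON, 136 in DSS and 189 in DSSPAR (0.47). Ccl3 and Ccl4 had 0.48 and 0.37, and Cxcl2 -0.38. Of 30 chemokine genes on the array 27 were measured, 18 lay below 0 against 51.7% of all measured genes, 7 were at least 2-fold lower against 1.24% and 0 higher against 0.392%, and the median was -0.28.

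Targets of the Il6 and STAT3 pathway were mostly below DSS. Hp, which encodes haptoglobin, read 10.1 in CON, 328 in DSS and 80.4 in DSSPAR (4.07-fold lower). Saa3, the serum amyloid gene of macrophages and epithelium, read 140.2 in CON, 1825 in DSS and 616 in DSSPAR (2.96-fold lower). Lrg1, a secreted glycoprotein of inflamed tissue, read 1.31 in CON, 890.5 in DSS and 403 in DSSPAR (2.21-fold lower). Socs3, the feedback inhibitor of the pathway, stood nearer to DSS with 92.1 in CON, 1230.2 in DSS and 1025 in DSSPAR (-0.26), and Saa2 was above it with 789 in DSS and 1083 in DSSPAR (0.46). All 20 genes of the list were measured: 19 lay below 0, 4 were at least 2-fold lower and the median was -0.32. In the prostaglandin pathway Ptgs2 read 45.6 in CON, 301 in DSS and 119 in DSSPAR (2.52-fold lower) and the terminal synthase gene Ptges 33.3 in CON, 49.8 in DSS and 22.5 in DSSPAR (at least 1.99-fold lower). Hpgd, the enzyme that inactivates prostaglandins, read 2399.6 in CON, 912 in DSS and 1246 in DSSPAR (0.45). The pathway as a list was even, with 9 of 17 measured genes above 0 and a median of 0.03.

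**Figure D2:**
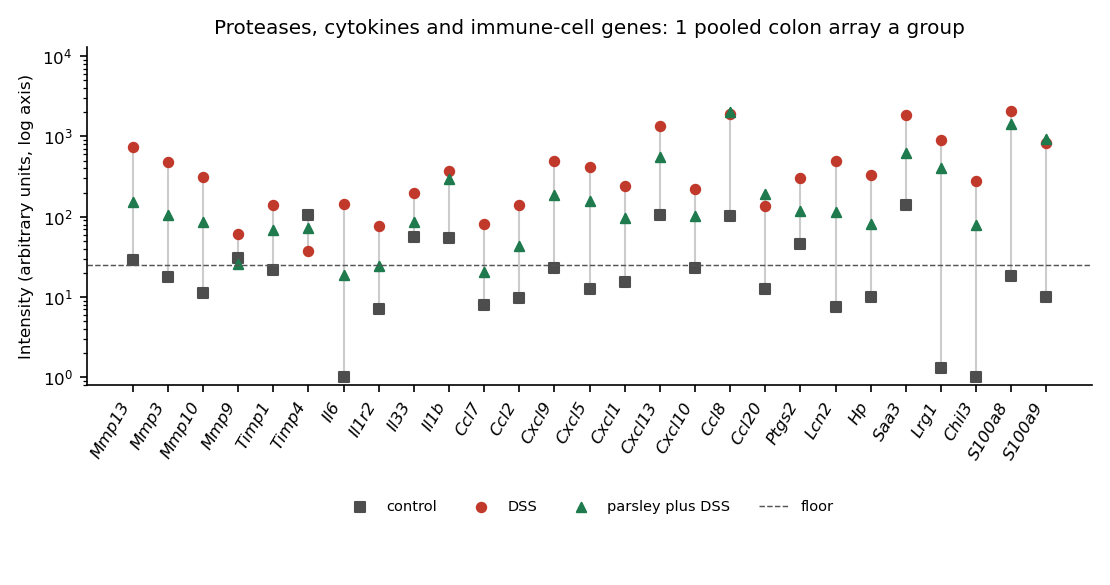
Intensity (vertical, log axis, arbitrary units) of 27 protease, cytokine and immune-cell genes (horizontal) in the CON, DSS and DSSPAR colon arrays, 1 pooled array a group and so no error bars; values under 1 are drawn at 1, and the dashed line is the floor of 25.1. Triangles for DSSPAR lie below circles for DSS in Mmp13 (154 against 746) and Il6 (19.0 against 143.2), close to them in Ccl8 and above them in Ccl20, Timp4 and S100a9.

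Neutrophil genes differed among themselves. Lcn2, which encodes a siderophore-binding protein of neutrophils and of inflamed epithelium, read 7.62 in CON, 496 in DSS and 114 in DSSPAR (4.35-fold lower). The formyl peptide receptor gene Fpr2 read 17.6 in CON, 89.8 in DSS and 39.1 in DSSPAR (2.29-fold lower). Of the calprotectin genes, abundant in neutrophils, S100a8 read 18.5 in CON, 2057 in DSS and 1423 in DSSPAR (-0.53) and S100a9 9.96 in CON, 839 in DSS and 923 in DSSPAR (0.14). Cd177, a neutrophil surface gene, read 193 in CON, 887 in DSS and 1471 in DSSPAR (0.73), and it and S100a9 were the members above DSS. Of 28 genes on the array 17 were measured, 15 lay below 0 and 3 were at least 2-fold lower, with a median of -0.50. The defining genes Csf3r, Cxcr2, Mpo and Elane lay under the floor in all 3 arrays.

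Macrophage genes were closer to equal. Chil3, a chitinase-like protein of alternatively activated macrophages, read 0.439 in CON, 277 in DSS and 79.6 in DSSPAR (3.48-fold lower), and the Fc receptor gene Fcgr4 21.2 in CON, 179 in DSS and 80.0 in DSSPAR (2.24-fold lower). Several markers had smaller ratios. Cd68 had -0.54 (22.7 in CON, 150.4 in DSS and 104 in DSSPAR) and Csf1r -0.24 (422 in CON, 1024 in DSS and 866 in DSSPAR). Adgre1 had 0.03 (92.9 in CON, 178 in DSS and 182 in DSSPAR) and Cd14 0.38 (308 in CON, 989 in DSS and 1288 in DSSPAR). In these 4 the DSSPAR level was above CON. Other markers included Cx3cr1 with -0.95, Cd163 with -0.53 and Mrc1 with -0.49, and, above DSS, Tyrobp with 0.24. Of 28 measured genes 20 lay below 0, 2 were at least 2-fold lower, and the median was -0.23. Among lymphocyte genes Gzmb, a cytotoxic granule protease, was at least 2.32-fold lower (20.2 in CON, 58.3 in DSS and 17.9 in DSSPAR) and the T cell kinase gene Zap70 2.10-fold lower (83.2 in CON, 117 in DSS and 55.6 in DSSPAR), whereas Cd3d and Cd3g had 0.67 and 0.24. Only 14 of 28 T and NK cell genes were measured, with a median of -0.11, and Cd4, Cd8a, Cd3e and Foxp3 lay under the floor in all 3 arrays. The B and plasma cell list had a median of -0.05 over 19 measured genes, with the joining chain gene Jchain at 0.51 (2653 in CON, 2289 in DSS and 3255 in DSSPAR) and Ms4a1, which encodes CD20, at -0.05 (83.3 in CON, 185 in DSS and 179 in DSSPAR). Of 31 measured interferon-stimulated genes 24 lay below 0 and 1 passed 2-fold, with a median of -0.25. The member past 2-fold was Gbp6, a GTPase gene, with 44.0 in CON, 254 in DSS and 124 in DSSPAR (2.05-fold lower). The tryptophan-degrading enzyme gene Ido1 and the GTPase genes Iigp1 and Gbp2 had -0.86, -0.84 and -0.73, and the antiviral genes Ifit3, Oasl2, Ifit1 and Irf7 -0.25, -0.04, 0.11 and 0.19. For MHC class II the median was -0.11 over 13 measured genes, with H2-Aa 0.16, Cd74 -0.36 and H2-Ab1 -0.31.

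Stromal signals lay mostly below DSS. Grem1, a BMP antagonist of crypt-base fibroblasts that helps hold the stem cell niche, read 192 in CON, 898 in DSS and 246 in DSSPAR (3.65-fold lower). Chrdl2, another BMP antagonist gene, read 17.2 in CON, 165 in DSS and 58.8 in DSSPAR (2.80-fold lower), and Inhba, an activin subunit gene, 37.4 in CON, 103 in DSS and 51.2 in DSSPAR (2.00-fold lower). DSS was the highest array for all 3. Wnt5a and Sfrp1 had -0.87 and -0.70, and the BMP ligand genes Bmp4 and Bmp2 -0.13 and 0.29. The other probe set of Wnt5a gave -1.34, and those of Sfrp1 ran from -1.48 to -0.37. Of 24 measured genes of these signals 20 lay below 0, 3 were at least 2-fold lower and the median was -0.41. Thbs1, a matricellular gene whose product activates latent TGF-beta, read 57.9 in CON, 97.0 in DSS and 32.9 in DSSPAR (2.95-fold lower, probe sets -1.56 and -1.06). The tenascin gene Tnc passed 2-fold by its brighter probe set and not by the other (-1.30 and -0.53). The collagen crosslinking enzyme gene Lox read 98.5 in DSS and 42.3 in DSSPAR (2.33-fold lower) and lay under the floor in CON. Its other probe set gave -0.29. Of 28 measured matricellular and crosslinking genes 24 lay below 0 and 4 passed 2-fold, with a median of -0.53. For Thbs1 DSSPAR was the lowest of the 3 arrays.

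Collagen and fibroblast genes had 27 of 32 measured members below 0, a median of -0.54 and 1 member past 2-fold. That member, Col5a1, read 97.6 in CON, 253 in DSS and 112 in DSSPAR, but its 2 probe sets gave -1.18 and -0.25. The basement membrane collagen Col4a1 read 325 in CON, 761 in DSS and 468 in DSSPAR (-0.70), Col1a2 852 in CON, 1921 in DSS and 1269 in DSSPAR (-0.60) and Col3a1 2052 in CON, 3539.9 in DSS and 2443 in DSSPAR (-0.54). Levels in DSSPAR lay above CON for these 3. Dcn and Lum, proteoglycan genes of resting fibroblasts, had -0.26 and -0.10, and Fap and Postn 0.49 and 0.07. Smooth muscle, the other large mesenchymal tissue of the wall, was near equal: 27 measured genes had a median of -0.03 and 0 past 2-fold in either direction, with Acta2 at 0.12 (5579 in CON, 4991 in DSS and 5419 in DSSPAR) and Myh11 at -0.20 (1906 in CON, 1399 in DSS and 1219 in DSSPAR).

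Endothelial genes had 27 of 31 measured members below 0 and a median of -0.65, the lowest of the 52 list medians after exocrine pancreas and the metalloproteinases. Selp, which encodes P-selectin, the adhesion molecule that slows leukocytes, read 20.5 in CON, 84.7 in DSS and 30.7 in DSSPAR (2.76-fold lower), and its 3 probe sets ran from -1.56 to -1.21. Plvap, a protein of fenestrated capillaries, read 125 in CON, 274 in DSS and 110.1 in DSSPAR (2.49-fold lower), and Eng, a TGF-beta coreceptor, 41.6 in CON, 88.8 in DSS and 35.6 in DSSPAR (2.49-fold lower). DSSPAR was the lowest array for Plvap and Eng. Vwf had -0.84 and Vcam1 -0.66. The general vessel markers varied: Emcn, Esam and Tek had -0.72, -0.61 and -0.47, and Pecam1, Cdh5 and Kdr -0.45, -0.19 and 0.01. Sox18 passed 2-fold narrowly (-1.01) and fell short with the arrays centred on their own medians.

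Neural genes also lay mostly below DSS. Gap43, a growth cone protein, read 49.6 in CON, 55.8 in DSS and 23.1 in DSSPAR (at least 2.22-fold lower), Snap25, of the synaptic fusion machinery, 98.5 in CON, 118 in DSS and 56.4 in DSSPAR (2.10-fold lower), and Rtn1 87.4 in CON, 69.2 in DSS and 30.5 in DSSPAR (2.27-fold lower). In all 3 DSSPAR was the lowest array, with CON within 1.5-fold of DSS. The opioid precursor gene Penk read 211 in CON, 349 in DSS and 169 in DSSPAR (2.06-fold lower) and Hand2, a factor of enteric neurons, 121 in CON, 169 in DSS and 83.1 in DSSPAR (2.04-fold lower). Vip and Nos1, of inhibitory motor neurons, had -0.59 and -0.38. Of 42 genes on the array 27 were measured, 25 lay below 0 and 5 were at least 2-fold lower, with a median of -0.43. The median genomic span was 25.7 kb for the measured neural genes, 44.9 kb for fibroblast genes and 19.7 kb for endothelial genes. The share of these lists' shifts that goes with span, or with the lower median of the DSSPAR array, was not tested.

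Growth factor genes included Ereg, which encodes the EGF receptor ligand epiregulin and read 46.5 in CON, 425 in DSS and 131 in DSSPAR (3.24-fold lower), and Igfbp5, an IGF-binding protein gene, which read 262 in CON, 1418 in DSS and 456 in DSSPAR (3.11-fold lower), though its 2 probe sets gave -1.64 and -0.36. Hgf and Nrg1, made by stromal cells, had -0.83 and -0.76. Of 29 measured genes 24 lay below 0, with a median of -0.25 and 2 past 2-fold. Pappa, a protease that frees IGF from its binding proteins, read 26.2 in CON, 153 in DSS and 31.4 in DSSPAR (4.87-fold lower, probe sets -2.28 and -0.94). Cemip, which degrades hyaluronan, read 12.6 in CON, 144 in DSS and 41.2 in DSSPAR (3.49-fold lower). Both were among the 25 lowest genes and in no list. Angptl4, a secreted inhibitor of lipoprotein lipase, read 34.6 in CON, 87.5 in DSS and 28.9 in DSSPAR (3.03-fold lower).

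Cell cycle genes were narrowly but evenly below DSS: of 43 measured genes 40 lay below 0, 1 passed 2-fold and the median was -0.32. Mki67 read 380.3 in CON, 813 in DSS and 660.2 in DSSPAR (-0.30), Top2a 269 in CON, 672 in DSS and 448 in DSSPAR (-0.58) and Rrm2, a ribonucleotide reductase subunit gene, 118 in CON, 326 in DSS and 198 in DSSPAR (-0.72). In each DSSPAR stood between DSS and CON. The other probe sets of Rrm2 gave -1.25 and -1.26, both past 2-fold. Ccne1 was the member past 2-fold by its brightest probe set (27.0 in CON, 56.2 in DSS and 27.2 in DSSPAR, 2.07-fold lower). Its other probe set gave -0.60. Cdkn1a, a cell cycle inhibitor gene, had 0.25. Crypt and stem cell genes gave 18 of 23 measured below 0 and a median of -0.26. Lgr5, the marker of crypt-base stem cells, read 101 in CON, 34.9 in DSS and 29.1 in DSSPAR (-0.26), Ascl2 63.2 in CON, 46.3 in DSS and 29.1 in DSSPAR (-0.67) and Axin2 108 in CON, 63.8 in DSS and 55.7 in DSSPAR (-0.20), so CON was the highest array for these 3. Nkd1, a Wnt target, was at least 2.14-fold lower (54.7 in CON, 53.6 in DSS and 24.2 in DSSPAR).

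**Figure D3:**
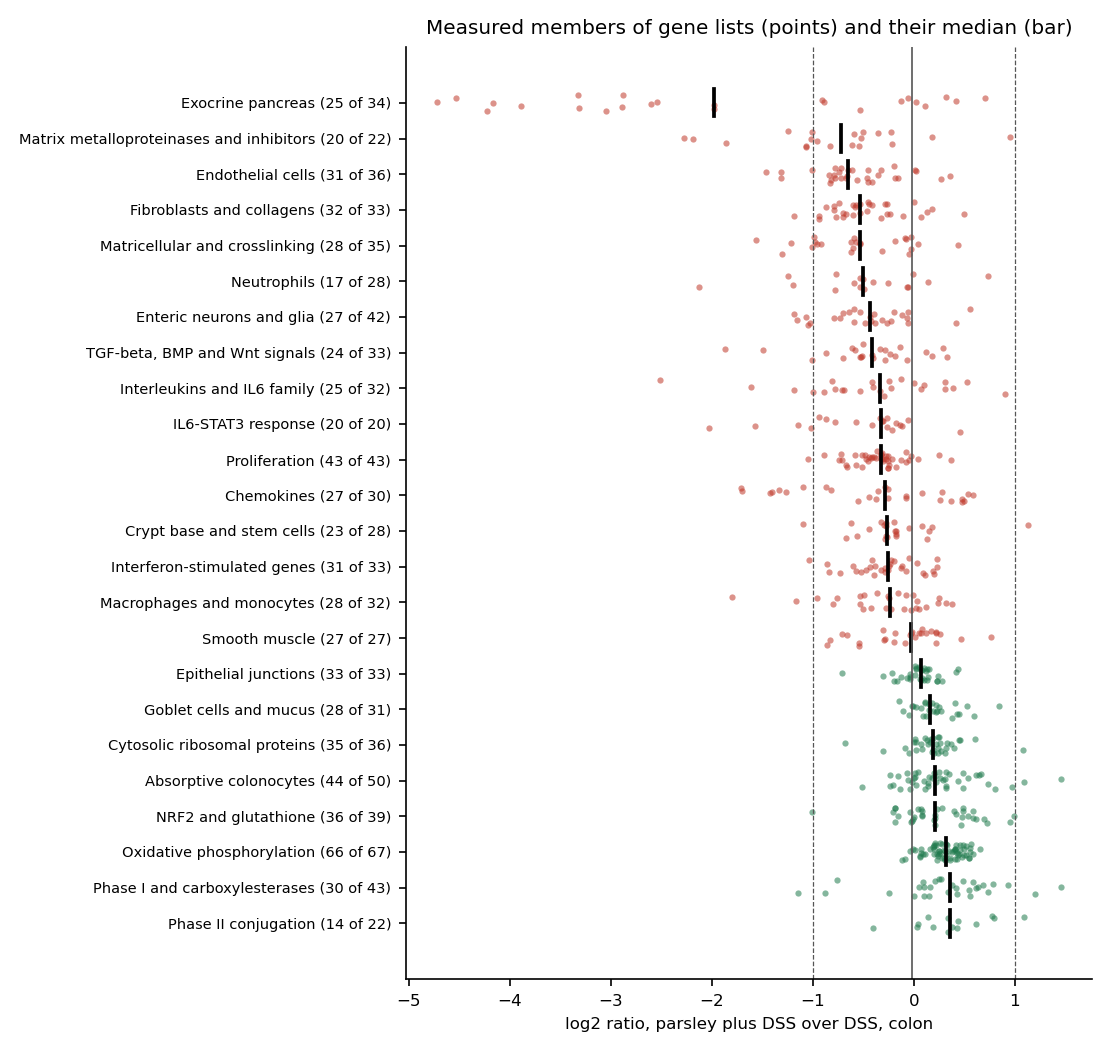
Log2 ratio of DSSPAR over DSS (horizontal) for the measured members (points) of 24 gene lists (vertical, with the number measured of the number on the array) and their median (black bar); the grey line is the median of all measured genes, -0.01, and the dashed lines mark 2-fold. Medians run from -1.98 for exocrine pancreas and -0.72 for the metalloproteinases to 0.36 for the phase I and phase II enzymes.

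Several genes of mature epithelium were among the highest. Ang4, which encodes an antimicrobial ribonuclease of goblet and Paneth cells, had the highest ratio with 733 in CON, 215 in DSS and 648 in DSSPAR (3.02-fold higher), and its 2 probe sets gave 1.36 and 1.59. S100g, the vitamin D-dependent calcium carrier calbindin-D9k, read 853 in CON, 286 in DSS and 815 in DSSPAR (2.85-fold higher). Cyp2c55, a cytochrome P450 of the colon, read 4094 in CON, 101 in DSS and 278 in DSSPAR (2.74-fold higher). Ttr, the carrier of thyroxine and retinol-binding protein, read 1547 in CON, 408 in DSS and 1092 in DSSPAR (2.68-fold higher), with 4 probe sets from 0.88 to 1.60. DSS was the lowest array in all 4, and DSSPAR came near CON in Ang4 and S100g but stayed far under it in Cyp2c55. These genes were picked for a high ratio over DSS, which partly sets that order. Reg4, a secreted lectin of deep crypt cells, was unlike them, with 1332 in CON, 1214 in DSS and 2659 in DSSPAR (2.19-fold higher): DSSPAR was the highest array and DSS close to CON.

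Absorptive colonocyte genes had 34 of 44 measured members above 0 against 48.3% of all measured genes, 2 at least 2-fold higher against 0.392%, and a median of 0.21. Sult1a1, a sulphotransferase that conjugates phenols, read 3313 in CON, 682 in DSS and 1448 in DSSPAR (2.12-fold higher). Fabp2, a fatty acid binding protein, read 2092 in CON, 297 in DSS and 583 in DSSPAR (0.97), and Aqp8, a water channel, 1346 in CON, 2411 in DSS and 3704 in DSSPAR (0.62). Slc26a3, the chloride and bicarbonate exchanger, read 6106 in CON, 4859.9 in DSS and 5955 in DSSPAR (0.29). Other colonocyte markers were nearly equal: Car1 read 6333 in CON, 3149 in DSS and 3184 in DSSPAR (0.02), Car4 3758 in CON, 5311 in DSS and 5249.9 in DSSPAR (-0.02) and Guca2a 3754 in CON, 1452 in DSS and 1465 in DSSPAR (0.01). Cyp2c65, close kin of Cyp2c55, read 1258 in CON, 50.8 in DSS and 54.5 in DSSPAR (0.10), far under CON in both. Slc13a1, Slc51a and Slc10a2, transporters of sulphate and bile acids, lay under the floor in DSS and in DSSPAR, with 235, 373 and 210.3 in CON. Fabp6, an ileal bile acid binding protein, read 135 in CON, 168 in DSS and 356 in DSSPAR (2.12-fold higher), and Mptx1, a mucosal pentraxin, 4871 in CON, 1194 in DSS and 2418 in DSSPAR (2.02-fold higher).

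Drug-metabolising enzymes had list medians as high as any, beside a small intestinal list of 10 measured genes that also had 0.36. Of 43 phase I genes, which oxidise or hydrolyse their substrates, 30 were measured, 26 lay above 0, 2 were at least 2-fold higher and the median was 0.36. Ces2b, a carboxylesterase, read 416 in CON, 155 in DSS and 356 in DSSPAR (2.30-fold higher), Cyp2d26 607 in CON, 95.7 in DSS and 183 in DSSPAR (0.93) and Fmo5, a flavin monooxygenase, 205 in CON, 46.2 in DSS and 79.8 in DSSPAR (0.79). In these 3 DSSPAR lay between DSS and CON. Nr1i2, the xenobiotic receptor PXR, read 188 in CON, 125 in DSS and 195 in DSSPAR (0.63) and Cyp3a13 1027 in CON, 549 in DSS and 808 in DSSPAR (0.56). Fmo2 was the member lower by 2-fold (166 in CON, 170.3 in DSS and 77.0 in DSSPAR, 2.21-fold lower), with 4 probe sets from -1.14 to -0.07. Of 22 phase II genes, which attach sulphate, glucuronate or acyl groups, 14 were measured, 13 lay above 0 and the median was 0.36. Sult1d1 read 2569 in CON, 1171 in DSS and 2034 in DSSPAR (0.80) and Ugdh, which makes the glucuronate donor, 2938 in CON, 1289 in DSS and 1977 in DSSPAR (0.62). Ugt2b5, a glucuronosyltransferase, lay under the floor in both arrays, with 238 in CON.

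Targets of NRF2, the factor that answers oxidants and plant electrophiles, were partly higher. Nqo1, a quinone reductase, read 115 in CON, 83.3 in DSS and 165 in DSSPAR (0.99), and Cbr3, a carbonyl reductase, 205 in CON, 359 in DSS and 695 in DSSPAR (0.95), so DSSPAR was the highest array for both. The glutathione transferases Gstm1 and Gstm2 had 0.59 (442 in CON, 374 in DSS and 562 in DSSPAR) and 0.72. The synthesis genes Gclc and Gclm, in contrast, had 0.04 and -0.19, Txnrd1 -0.20 and Srxn1 -0.01. Keap1, the repressor of NRF2, read 197 in CON, 217 in DSS and 108 in DSSPAR (2.01-fold lower, probe sets -1.01 and -0.53). In total 26 of 36 measured genes lay above 0, 0 were 2-fold higher and 1 was 2-fold lower, with a median of 0.21. The best known targets of the aryl hydrocarbon receptor, which binds flavones among other ligands, lay under the floor in both arrays: Cyp1a1 read 7.01 in CON, 16.5 in DSS and 6.05 in DSSPAR, and Cyp1b1, Cyp1a2 and Ahrr were likewise under it. Ahr itself had -0.40 (242 in CON, 277 in DSS and 210.1 in DSSPAR).

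**Figure D4:**
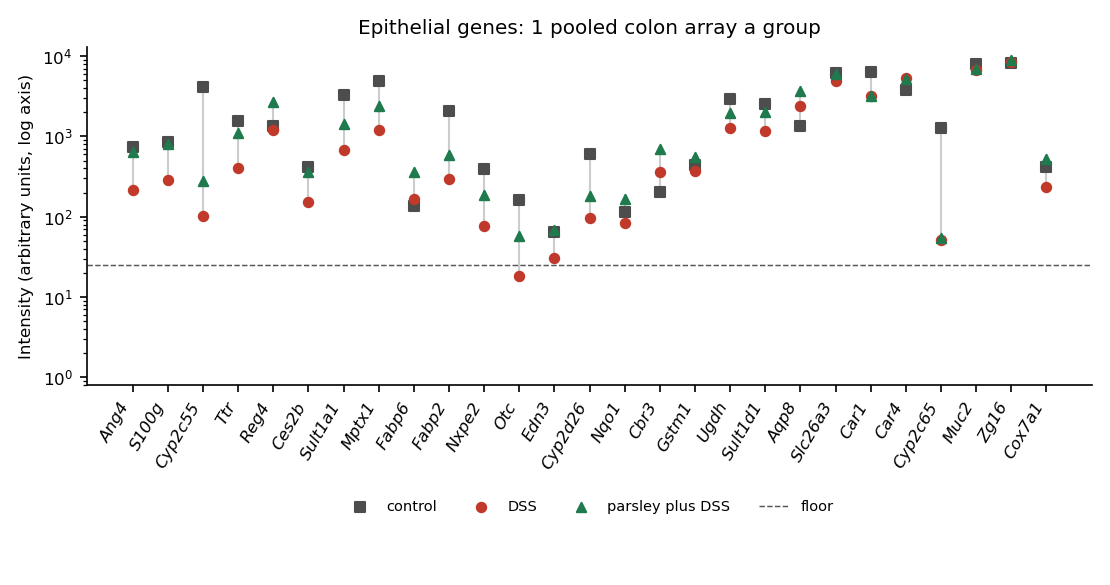
Intensity (vertical, log axis, arbitrary units) of 27 epithelial genes (horizontal) in the CON, DSS and DSSPAR colon arrays, 1 pooled array a group and so no error bars; the dashed line is the floor of 25.1. Triangles for DSSPAR lie above circles for DSS in Ang4 (648 against 215), S100g and Ttr, and on them in Car1, Cyp2c65 and Muc2.

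Goblet cell genes had 22 of 28 measured members above 0 and a median of 0.17, with 0 past 2-fold in either direction. Relative to all genes that median was 0.18, and only 0.02 after quantile normalization. Muc2, the gel-forming mucin, read 7984 in CON, 6761 in DSS and 6874 in DSSPAR (0.02) and Zg16, a lectin that keeps bacteria from the wall, 8247 in CON, 8413 in DSS and 9077 in DSSPAR (0.11). Spink4, a secreted protease inhibitor, read 2392 in CON, 5187 in DSS and 7452 in DSSPAR (0.52), and Retnlb, a goblet cell cytokine, 187 in CON, 1285 in DSS and 1724 in DSSPAR (0.42). Of the antimicrobial genes Reg3g read 151 in CON, 521 in DSS and 286 in DSSPAR (-0.87), Reg3b 2843 in CON, 3207 in DSS and 2664 in DSSPAR (-0.27) and Pla2g2a 10.2 in CON, 302 in DSS and 208 in DSSPAR (-0.54). The list as a whole held 3 genes at least 2-fold higher, of which Ang4 was the highest, and 3 at least 2-fold lower (Lcn2, Saa3 and Reg3a). Its median was -0.03. Among calcium genes the channel gene Trpv6 read 29.0 in CON, 67.3 in DSS and 109.6 in DSSPAR (0.70) beside S100g, and the receptor gene Vdr 1039 in CON, 584 in DSS and 660.1 in DSSPAR (0.18). Of the hormone genes Insl5 read 649 in CON, 1894 in DSS and 2863 in DSSPAR (0.60), while Chga and Pyy had -0.15 and -0.01. Junction genes were near equal, with a median of 0.08 over 33 measured: Cdh1 had 0.14, Ocln 0.28, Cldn4 -0.13 and Cldn2 0.06.

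Oxidative phosphorylation genes lay in a narrow range: 62 of 66 measured subunits lay above 0, 0 passed 2-fold in either direction, and the ratios ran from -0.11 to 0.65 with a median of 0.32. Atp5l, of the ATP synthase, read 2304 in CON, 2887 in DSS and 4542 in DSSPAR (0.65), Ndufa7, of complex I, 1693 in CON, 1628 in DSS and 2450.2 in DSSPAR (0.59), and Uqcrh, of complex III, 3413 in CON, 3725 in DSS and 5530.2 in DSSPAR (0.57). DSSPAR was above CON for these 3. The catalytic subunit genes Atp5b and Sdha were near equal (0.09 and -0.01). Cox7a1, a muscle-type subunit gene of complex IV that was not in the list, passed 2-fold with 416 in CON, 233 in DSS and 516 in DSSPAR (2.22-fold higher). These subunits have short genes, with a median span of 7.08 kb. Cytosolic ribosomal protein genes had 31 of 35 measured members above 0 and a median of 0.19, and fatty acid oxidation and PPAR target genes 18 of 29 and 0.18. Relative to all genes, quantile normalization took the ribosomal median from 0.21 to 0.02. It took the oxidative phosphorylation median from 0.33 to 0.14. Hadhb and Acadm, enzymes of fatty acid oxidation, had 0.48 (2106 in CON, 1549.9 in DSS and 2168 in DSSPAR) and 0.43 (1827 in CON, 1123 in DSS and 1509 in DSSPAR), and Vnn1 0.76.

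Genes of the TNF family and targets of NF-kB, the factor that Tnf activates, spread around 0 with 14 of 22 measured below it, 0 past 2-fold and a median of -0.13. The feedback inhibitor gene Nfkbia read 1659 in CON, 2788 in DSS and 2841 in DSSPAR (0.03). Nfkbiz read 611 in CON, 1379.6 in DSS and 1510.1 in DSSPAR (0.13), but its other probe sets gave -0.67 and -0.30. The adhesion molecule gene Icam1 read 39.1 in CON, 133 in DSS and 85.3 in DSSPAR (-0.64), Tnfrsf12a, the TWEAK receptor gene, 63.5 in CON, 105 in DSS and 53.7 in DSSPAR (-0.96) and Tnfaip3, which ends NF-kB signalling, 289 in CON, 461 in DSS and 370.1 in DSSPAR (-0.32). DSS was the highest array for the last 3 and not for the first 2.

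Stress and housekeeping programmes were nearer to the background. The heat shock list had 19 of 21 measured genes below 0 but a median of only -0.11, with the small heat shock gene Hspb1 at -0.85 (398 in CON, 806 in DSS and 448 in DSSPAR) and the constitutive chaperone gene Hspa8 at 0.27 (4949 in CON, 5327 in DSS and 6439 in DSSPAR). Endoplasmic reticulum stress genes had a median of -0.01 over 31 measured: the chaperone gene Hspa5 read 2278 in CON, 4001 in DSS and 3698 in DSSPAR (-0.11), Ddit3 113 in CON, 103 in DSS and 103 in DSSPAR (0.00) and the secretory cell factor gene Xbp1 2592 in CON, 3201 in DSS and 3726 in DSSPAR (0.22). Hypoxia and glycolysis genes had -0.02 over 29, with Hif1a -0.14, Ldha 0.03 and Vegfa -0.05. Cholesterol and lipid synthesis genes had 0.08 over 27, with Hmgcs1 0.21, Insig1 0.54 and Fasn -0.22.

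Clock genes, whose levels vary with the time of day, were even, with 10 of 21 measured above 0 and a median of -0.02. The core activator gene Arntl read 84.7 in CON, 91.0 in DSS and 92.8 in DSSPAR (0.03), but its other probe set gave -0.63. Per2 read 145 in CON, 138 in DSS and 136 in DSSPAR (-0.03), with other probe sets at -0.31 and -0.19. The output gene Dbp read 1117 in CON, 481 in DSS and 727 in DSSPAR (0.60). Nfil3, which is also induced in inflammation, was at least 2.01-fold lower (19.8 in CON, 50.4 in DSS and 20.5 in DSSPAR). Complement and coagulation genes had 17 of 21 measured below 0 and a median of -0.28. Serping1, the inhibitor of C1, read 439.7 in CON, 1202 in DSS and 726 in DSSPAR (-0.73), and the anaphylatoxin receptor gene C3ar1 30.2 in CON, 90.0 in DSS and 58.5 in DSSPAR (-0.62). Apoptosis, p53 and inflammasome genes had 18 of 26 measured above 0 and a median of 0.15. Casp1, the inflammasome protease gene, read 979.6 in CON, 1036 in DSS and 1382 in DSSPAR (0.42), Gsdmc2, a gasdermin of colonic epithelium, 2784 in CON, 1542 in DSS and 2227 in DSSPAR (0.53) and Ripk3, which drives necroptosis, 65.1 in CON, 294 in DSS and 209 in DSSPAR (-0.49).

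Retinoid genes had a median of 0.01 over 21 measured, with Ttr the 1 member past 2-fold. The retinaldehyde dehydrogenase genes differed: Aldh1a1, of epithelium, read 977 in CON, 232 in DSS and 280.1 in DSSPAR (0.27), Aldh1a3 47.4 in CON, 126 in DSS and 74.9 in DSSPAR (-0.75) and Aldh1a2, of stroma and myeloid cells, 29.5 in CON, 39.5 in DSS and 26.0 in DSSPAR (-0.60). Aldh1a3 and Aldh1a2 were highest in DSS, and Aldh1a1 in CON.

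Further high genes belonged to no list. Tspan12, a tetraspanin that aids norrin signalling, read 364 in CON, 132 in DSS and 350.2 in DSSPAR (2.66-fold higher), and Nxpe2 395 in CON, 77.4 in DSS and 189 in DSSPAR (2.44-fold higher). Elapor1, found in secretory cells, read 327 in CON, 116 in DSS and 267 in DSSPAR (2.30-fold higher, probe sets 0.76 and 1.20). These 3 were lowest in DSS. The transcription factor gene Zbtb7b read 69.4 in CON, 42.8 in DSS and 124 in DSSPAR (2.90-fold higher), with probe sets at 0.50 and 1.53, and Zfas1, a small nucleolar RNA host transcript, 331 in CON, 469 in DSS and 1054 in DSSPAR (2.25-fold higher), so DSSPAR was the highest array for both. Otc, a urea cycle enzyme that enterocytes also make, read 163 in CON, 18.1 in DSS and 57.1 in DSSPAR (at least 2.28-fold higher). Edn3, an endothelin, read 64.9 in CON, 30.4 in DSS and 67.6 in DSSPAR (2.23-fold higher). Smpx read 203 in CON, 58.0 in DSS and 150.5 in DSSPAR (2.60-fold higher), Cttnbp2 336 in CON, 139.9 in DSS and 312 in DSSPAR (2.23-fold higher) and Zfp931 126 in CON, 119 in DSS and 279.8 in DSSPAR (2.34-fold higher). Of the genes past 2-fold, 36 higher and 72 lower ones were in no list, and 10 and 74 were among the 1151 measured list genes. Over all 11730 measured genes the shares were 0.392% higher and 1.24% lower. The lists were chosen with earlier results of these data known, so a larger share inside them supports nothing.

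Separate probe sets read different stretches of a transcript. Of 5106 measured genes with several, 51.9% had them all on 1 side of 0. The log2 ratios of the 2 brightest probe sets of a gene differed with a robust SD of 0.36. That spread covers the probes and leaves out the spread between pools of mice. The list medians kept to their side of the all-gene median under every alternative tried in 36 of the 52 lists, and 50 of the 106 named genes past 2-fold stayed past it under every alternative that gave a value. Those 50 include Mmp13, Mmp3, Mmp10, Mmp9, Lcn2, Hp, Saa3, Ccl7, Cxcl1, Cxcl5, Cxcl9, Cxcl13, Ptgs2, Grem1, Ereg, Thbs1, Selp, Plvap and Eng on the lower side and Ang4, S100g, Cyp2c55, Ttr, Tspan12 and Otc on the higher. Il6, Ccl2, Pappa, Cemip, Chrdl2, Zbtb7b, Nxpe2 and Smpx fell short only with the higher floor. That floor gave no value for genes under it in both arrays, such as Ccl7 and Eng. Their place among the 50 therefore does not set them above Il6 or Ccl2. Scaling to spike-ins alone took Ces2b, Sult1a1, Fabp6, Cox7a1, Edn3, Zfas1 and Zfp931 under 2-fold. Elapor1 and Cttnbp2 fell short with that scaling and with averaged probe sets. Centring on own medians took away Lrg1, Cxcl10, Il33, Fcgr4, Zap70, Gbp6, Inhba, Col5a1, Snap25, Rtn1, Penk, Hand2, Ccne1, Nkd1, Nr4a2, Dusp5, Keap1 and Fmo2. It was not the only such setting for all of them: Ccne1, Fmo2, Gbp6, Hand2, Dusp5, Fcgr4 and Col5a1, among others, fell short under further settings too.

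**Figure D5:**
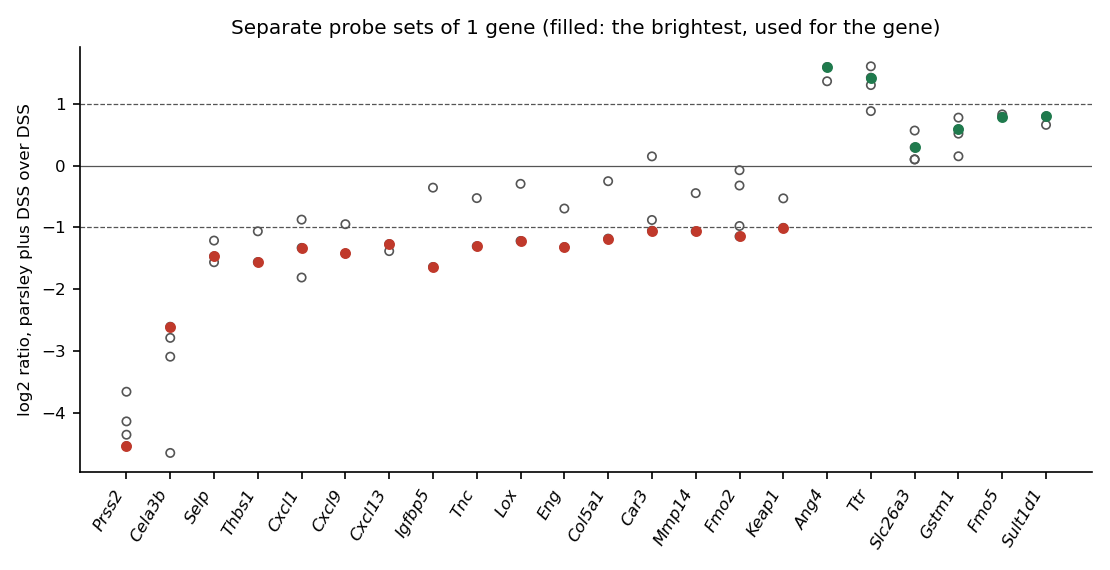
Log2 ratio of DSSPAR over DSS (vertical) for each probe set (open circles) of 22 named genes with several (horizontal), with the brightest, which stands for the gene, filled; solid and dashed lines mark 0 and 2-fold. Those of Selp run from -1.56 to -1.21 and those of Car3 from -1.05 to 0.15; the shared sign in Prss2, Ang4 and Ttr was a condition of naming them among the 25 highest or lowest genes and supports nothing.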

How the data were processed

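RNA pooled from 7 mice per group was hybridised to 1 array per group and tissue, and each array's number limits the precision: no spread between animals was measured. The deposited values are linear intensities of 45101 probe sets, made by the authors with MAS5 per the submitters' processing notes; no depth applies to arrays. Of the probe sets 34958 carried 1 gene symbol, 932 several and 9211 none; 34754 were matched through their Entrez identifiers and 0 symbols were updated. From there, 1 probe set stood for each gene, the one with the highest mean log2 intensity over the 3 colon arrays, values were raised to the floor (50th percentile of those arrays) and the log2 ratio of DSSPAR over DSS was taken. With 1 array a group there is no replicate check and no test.

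The members and the gene lists were chosen with earlier results of these data known. Named genes are the 25 highest and 25 lowest ratios among genes whose brighter array reached the 60th percentile and whose probe sets shared the sign, list members past 2-fold, in each list up to 6 more members by size of ratio, and key members of each list. Counts were repeated with another floor, without a floor, with 4 other scalings, with probe sets averaged, without probe sets of shared type, without pancreatic genes and at 3-fold. The code was tested on simulated data with 200 shifted genes. Python 3.11.15, NumPy 2.4.6, pandas 2.3.3, SciPy 1.17.1 and matplotlib 3.10.9 were used. Promoter sequences are RefSeq's.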

Additional observations from a re-analysis of the deposited data

Results flagged for a closer look

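In 3 named genes the colon and the liver of the same groups lay in opposite directions, both past 2-fold. Ang4 had a log2 ratio of DSSPAR over DSS of 1.59 in colon and -1.5 in liver, Zfp931 1.23 and -1.9, and Edn3 1.16 and -2.23. Each value rests on 1 pooled array a group in each tissue, and the difference between the tissues was not tested. The named genes numbered 710 and were chosen in part by their colon ratios. The share of all genes that lie so is not given here, so the count has no background. Liver intensities were raised to a liver floor of 96.6, so the liver ratios may be bounds.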

How the results depend on the processing

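Each comparison rests on 1 pooled array a group, so no replicate could be left out. No paired analysis was possible because each group has 1 array in each tissue. Past 2-fold lay 46 higher and 146 lower genes. The counts became 20 and 51 with a floor at the 75th percentile, 1295 and 1532 with no floor and no filter, 108 and 79 with each array centred on its own median, 15 and 365 with scaling to the spike-in controls (chosen after seeing the data), and 1 and 35 at 3-fold. Quantile normalization gave 92 lower. The counts without pancreatic genes (46 and 132) and with the remaining alternatives were within 1.5 times 46 and 146. No floor admits genes whose signal lies in the dim range of the arrays. Relative to the median of all genes, 36 of 52 list medians kept their side under every alternative tried. Among these, cytosolic ribosomal proteins and goblet cells came down to 0.02 each with quantile normalization. Of the 16 that changed side, 12 had a main value within 0.1 of the all-gene median and so no settled side. Those farther from it were MHC class II presentation with probe sets averaged (0.030), T and NK cells with quantile normalization (0.038) and with probe sets averaged (0.00514), aryl hydrocarbon receptor targets with no floor (0.026) and hepatocytes with no floor (-0.019). The cause of these changes was not tested. Diet and length of DSS exposure cannot be told apart.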
